A study of Mus musculus with 8 samples.

Results

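The collagen genes are the rows of the expression tables whose symbol has the form Col, a number, a, and a number, such as Col1a1. They were chosen by symbol alone, and 43 of the 23389 symbols in each table met that form. The study holds 8 mouse poly-A RNA-seq libraries in 4 groups of 2. The first group is a pair of induced pluripotent stem (iPS) clones made from embryonic fibroblasts with 3 factors, Oct4, Klf4 and Sox2, and treated with IL6 at 10 ng/mL (3F+IL6). The second is a pair of iPS clones named 4F, for 4 factors that the labels do not name. The third is a pair of libraries of the embryonic stem (ES) cell line D3 carrying GFP, and the fourth a pair of libraries of mouse embryonic fibroblasts (MEF), the cell type from which the 3F+IL6 clones were derived. Both kinds of clone and the MEF are BALB/c and the ES cells are 129S2/SvPas, so cell type and strain change together wherever ES cells are compared. The clones of a kind were derived independently, while the ES libraries come from 1 cell line. The sources used here give no culture conditions or passage numbers.

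Collagens are secreted proteins of 3 chains wound into a helix, and each kind of chain is the product of a separate gene. The fibrillar collagens (types I, II, III, V, XI, XXIV and XXVII) build the fibrils of connective tissue, and type IV collagen builds the sheet of the basement membrane. The FACIT collagens, which are fibril-associated collagens with interrupted helices, sit on the surface of fibrils. The other collagens include the beaded filaments of type VI, the anchoring fibrils of type VII, short network formers, transmembrane collagens and the multiplexins, collagens XV and XVIII, which carry heparan or chondroitin sulfate chains in basement membrane zones. Fibroblasts are a main source of types I, III, V and VI, and early embryonic cells lay down type IV in the first basement membranes.

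Levels are RPKM, reads scaled by transcript length and by the reads of the library, so that genes of unlike length can be compared. The estimated depth was 11700000 to 18100000 reads a library. All 10 pluripotency markers, Pou5f1, Sox2 and Nanog among them, were called higher in both kinds of clone and in ES cells than in MEF. Of all genes tested, 49.4% were called higher than MEF in 3F+IL6 clones, 49.2% in 4F clones and 49.7% in ES cells. The markers summed to 5130 to 6269 RPKM in the clones, 5219 and 5347 RPKM in ES cells, and 7.02 and 8.73 RPKM in MEF. MEF carried all 14 fibroblast markers at 1 RPKM or more. Replicates correlated at r = 0.9841 to 0.9964 across genes, the lowest value being that of the 3F+IL6 clones with each other. 3F+IL6 clone 1 correlated better with both 4F clones (0.9886 and 0.9882) than with 3F+IL6 clone 2, so the pair stands further apart than the other pairs, and the counts against MEF and ES cells are given without each of them.

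Stretches before an annotated transcript start of 3 collagen genes are shown because these genes stand for the patterns described below. Col1a2 encodes the second chain of type I collagen and was highest in MEF. Col3a1 encodes type III collagen and, in the clones but not in ES cells, kept the largest share of its MEF level among the type I and III genes. Col18a1 encodes collagen XVIII and was lowest in MEF. They are parts of RefSeq promoter sequences (GRCm38.p6, the assembly also called mm10), 5′ to 3′ on the strand of the gene. Each lies within the 250 bases before an annotated transcript start and holds no annotated UTR. The Col1a2 and Col18a1 stretches stop short of that start, the Col1a2 stretch at 4505492 with the start at 4505618. Capitals mark a TATA box (TATAAA, or TTTATA on the other strand), a CCAAT box (CCAAT, or ATTGG) or a GC box (GGGCGG, or CCGCCC).
Col1a2, chr6:4505370-4505492, + strand: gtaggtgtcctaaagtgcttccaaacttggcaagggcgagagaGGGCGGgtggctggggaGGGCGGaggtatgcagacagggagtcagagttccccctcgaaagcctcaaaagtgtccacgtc
Col3a1, chr1:45311288-45311537, + strand: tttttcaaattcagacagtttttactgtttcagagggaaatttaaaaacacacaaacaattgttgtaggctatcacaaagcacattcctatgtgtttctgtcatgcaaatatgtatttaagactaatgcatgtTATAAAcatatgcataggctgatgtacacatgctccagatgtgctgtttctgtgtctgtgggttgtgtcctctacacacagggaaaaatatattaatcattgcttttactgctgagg
Col18a1, chr10:77166549-77166780, - strand: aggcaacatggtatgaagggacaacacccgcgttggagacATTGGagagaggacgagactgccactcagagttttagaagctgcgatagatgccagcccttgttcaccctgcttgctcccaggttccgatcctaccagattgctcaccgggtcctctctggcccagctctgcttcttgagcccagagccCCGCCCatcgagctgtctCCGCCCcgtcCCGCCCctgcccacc
The Col1a2 stretch lies between exons of a longer annotated Col1a2 transcript and holds 2 GC boxes. The 250 bases before its start also hold 1 CCAAT box, outside the stretch shown. The Col18a1 stretch, before the upstream start of that gene, holds 1 CCAAT box and 3 GC boxes. Col3a1 has 1 TATA box and neither of the other motifs. In the 250 bases before the start, a TATA box stood in 13.2% of 38 promoters of 35 collagen genes, against 12.4% of all 32851 promoters, a CCAAT box in 34.2% against 33.8%, and a GC box in 57.9% against 32.7%. Among the 11961 promoters of genes that entered the test the shares were 6.50% for the TATA box, 35.6% for the CCAAT box and 58.2% for the GC box. The marked motifs do not overlap each other, and a match is a description of letters, not of a bound factor.

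In sum, the collagen genes stood at 8.29% and 11.6% of the MEF level in the 3F+IL6 clones, at 8.87% and 7.59% in the 4F clones, and at 3.37% and 3.40% in ES cells. The summed level was 336 ± 79.5 RPKM in 3F+IL6 clones, 278 ± 30.5 RPKM in 4F clones, 114 ± 0.569 RPKM in ES cells and 3376 ± 1.03 RPKM in MEF (SD, n = 2 each). All 4 clones lay above both ES libraries and far below both MEF libraries. In bulk libraries, fewer cells that make a transcript and less of it in each cell cannot be told apart.

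The make-up of that sum also differed. Fibrillar genes gave 42.0% to 47.3% of the collagen sum in the 4 clones, 8.12% and 8.24% in ES cells, against 68.1% and 68.0% in MEF. Type IV genes gave 6.48% to 9.88% in the clones, 35.7% and 36.3% in ES cells, and 13.3% in each MEF library. A single gene, Col18a1, gave 26.4% to 32.6% in the clones, 45.1% and 44.6% in ES cells, against 0.394% and 0.414% in MEF. The clones therefore held collagen transcripts in proportions unlike those of ES cells and of MEF. Col1a1 took 18.2% to 18.6% of the sum in all 4 clones, a narrow range beside the spread of the sum itself.

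**Figure D1:**
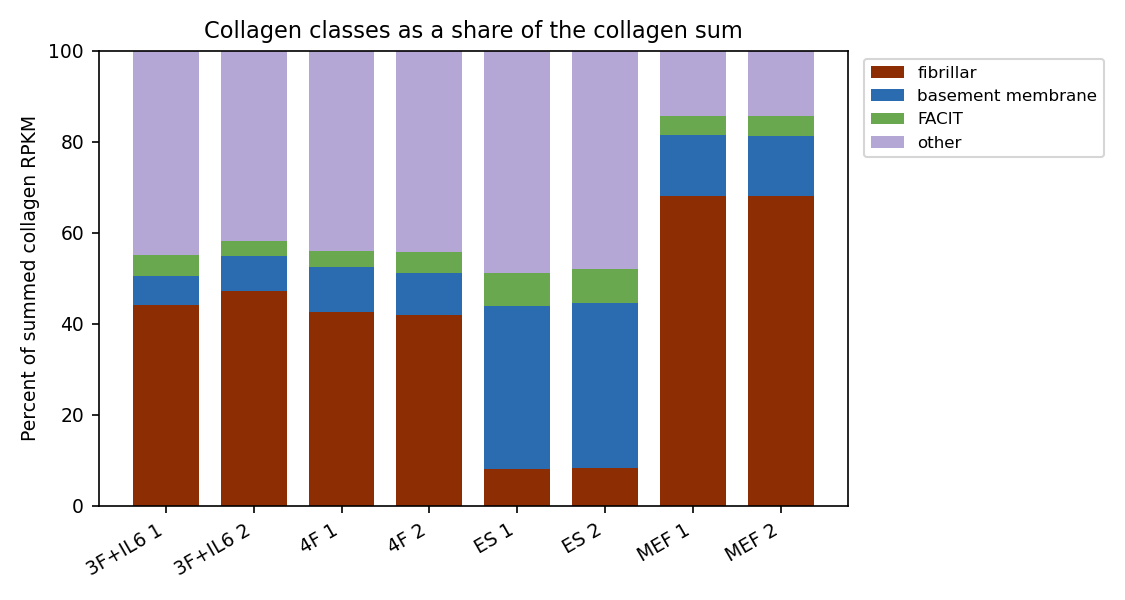
Stacked bars give the share (percent) of the summed collagen RPKM taken by each class in each of the 8 libraries. The fibrillar share is 42.0% to 47.3% in the 4 clones, 8.12% and 8.24% in ES cells, against 68.1% and 68.0% in MEF.

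By class, the fibrillar sum stood at 6.72% ± 1.92 of MEF in 3F+IL6 clones, 5.12% ± 0.606 in 4F clones and 0.407% ± 0.00625 in ES cells. The type IV sum stood at 5.30% ± 1.79 in 3F+IL6 clones, 5.89% ± 0.993 in 4F clones and 9.17% ± 0.155 in ES cells, so for this class alone the ES libraries lay above all 4 clones. The FACIT sum stood at 8.94% ± 0.184 in 3F+IL6 clones, 7.86% ± 0.386 in 4F clones and 5.89% ± 0.107 in ES cells (SD, n = 2 each). The sum of the other collagens stood at 29.9% ± 5.60 in 3F+IL6 clones, 25.3% ± 2.62 in 4F clones and 11.4% ± 0.0874 in ES cells. Without Col18a1 it stood at 10.1% in 3F+IL6 clones, 8.19% in 4F clones and 0.843% in ES cells, and the FACIT sum without Col12a1 at 32.6%, 27.7% and 26.2% of MEF in these groups.

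Of the 43 collagen genes, 25 passed the filter of 1 RPKM or more in at least 2 libraries and entered the test, namely 9 of 11 fibrillar, 3 of 6 type IV, 4 of 9 FACIT and 9 of 17 other genes. Of the 25, 4 passed through their MEF level alone (Col4a5, Col10a1, Col11a1 and Col27a1) and 1 through its ES level alone (Col13a1). A gene that passes in that way had to differ from the group that let it pass, so the counts below describe and are no support for a shift of the family. Col9a3 would not have passed without the 3F+IL6 clones, since 4F clone 2 was the only other library at 1 RPKM or more. The test was limma on log2(RPKM + 1), fitted to all 13200 genes that passed. A gene is called, and is said to have risen or fallen, where the Benjamini-Hochberg adjusted p over all genes is under 0.05. Differences below are on that log2 scale and understate the change of genes with low values. The comparisons share groups, so their counts are not independent of each other.

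Relative to MEF, 19 of the 25 tested genes fell and 3 rose in the 3F+IL6 clones, with a median difference of -3.03. Among all genes, 32.6% fell and 49.4% rose, with a median of 0.26. In the 4F clones 20 fell and 4 rose, with a median of -3.28, where 34.4% of all genes fell and 49.2% rose. In ES cells 21 fell and 4 rose, with a median of -3.66, where 32% of all genes fell and 49.7% rose. Without 3F+IL6 clone 2 the counts were 3 higher and 21 lower in 3F+IL6 clones, without 3F+IL6 clone 1 they were 3 and 19, and with 3F+IL6 clone 1 or clone 2 left out they were 4 and 21 in 4F clones. The shares of all genes called also moved in these fits without a clone. The genes that rose against MEF in 3F+IL6 clones, 4F clones and ES cells alike were Col18a1, Col9a2 and Col9a3. Quantile normalization moved the median of all genes against MEF from 0.26 to 0.06 in 3F+IL6 clones, from 0.25 to 0.09 in 4F clones and from 0.27 to 0.15 in ES cells.

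Relative to ES cells, 17 of the 25 rose and 3 fell in the 3F+IL6 clones, with a median difference of 1.15, where 33.1% of all genes rose and 30.3% fell. With quantile normalization 16 rose and 7 fell, without 3F+IL6 clone 2 the counts were 17 and 5, and without clone 1 they were 17 and 3. In the 4F clones 16 rose and 3 fell, with a median of 1.00, where 33.7% of all genes rose and 33.5% fell. With quantile normalization 16 rose and 5 fell, and with 3F+IL6 clone 1 or clone 2 left out 16 rose and 4 fell. With quantile normalization 28.0% of all genes rose and 34.8% fell in 3F+IL6 clones, and 30.3% and 35.8% in 4F clones. The shares of all genes also moved in the fits without a clone. By class, in the fit reported here, 7 of 9 fibrillar and 6 of 9 other genes rose in each kind of clone, and 1 of 3 type IV genes. In 3F+IL6 clones 3 of 4 FACIT genes rose, and in 4F clones 2 of 4. Those that fell in both kinds of clone were Col4a1, Col9a2 and Col13a1.

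Between 3F+IL6 and 4F clones, none of the 25 was called by limma, while 4 had an unadjusted p under 0.05. Of all genes, 0.773% were called higher and 0.568% lower in this comparison. These shares were not stable, being 0.0152% and 0.0758% in a fit of only the libraries compared. They also moved when 1 library was left out. The 4 genes with an unadjusted p under 0.05 were Col3a1 (0.87 ± 0.27 SE, adjusted p = 0.12), Col5a2 (0.52 ± 0.20, adjusted p = 0.18), Col16a1 (0.53 ± 0.15, adjusted p = 0.11) and Col18a1 (0.21 ± 0.09, adjusted p = 0.20). This count rests on which clone is used. Without 3F+IL6 clone 1, 13 of the 25 were called higher than in 4F clones, where 23.7% of all genes were called higher and 12.7% lower. Without 3F+IL6 clone 2, 0 were called higher and 1 lower, where 3.29% of all genes were called higher and 2.92% lower. The lone clone was assumed to vary like the other groups.

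**Figure D2:**
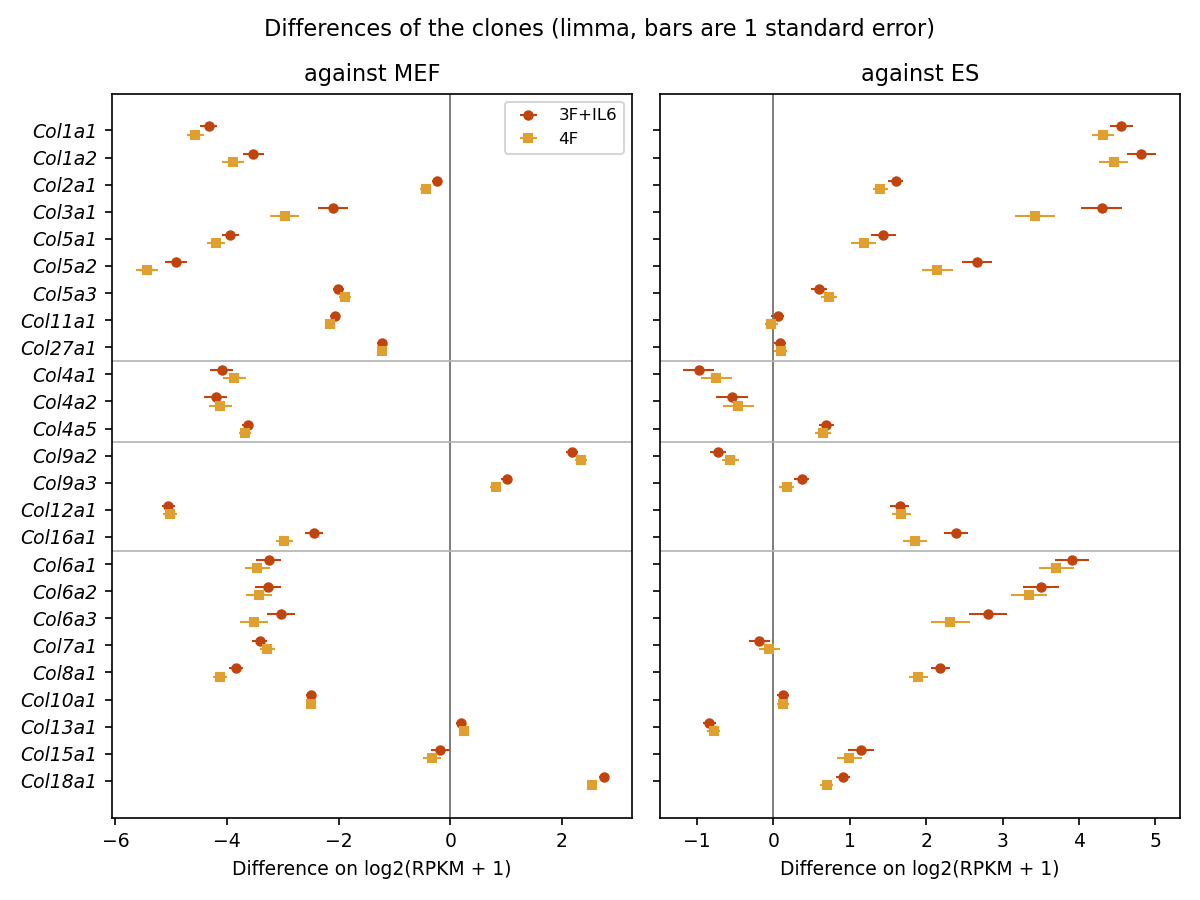
Points give the difference of 3F+IL6 and 4F clones from MEF (left) and from ES cells (right) on the log2(RPKM + 1) scale for the 25 tested collagen genes, grouped by class from fibrillar at the top to other at the bottom, with bars of 1 standard error. Col18a1, Col9a2, Col9a3 and, close to 0, Col13a1 lie right of 0 against MEF. Against ES cells Col4a1, Col9a2 and Col13a1, called lower in both kinds, lie left of 0. So do Col4a2 and Col7a1 in both kinds and Col11a1 in 4F clones, which were not called.

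Type I collagen is the main protein of fibrils, built of 2 chains from Col1a1 and 1 from Col1a2. Col1a1 (chr11:94936224-94953042, + strand) had 51.4 and 71.6 RPKM in 3F+IL6 clones, 55.7 and 47.0 RPKM in 4F clones, 1.59 and 1.66 RPKM in ES cells, and 1243 and 1232 RPKM in MEF. Col1a2 (chr6:4504814-4541544, + strand) had 35.5 and 54.9 RPKM in 3F+IL6 clones, 37.7 and 30.9 RPKM in 4F clones, 0.533 and 0.675 RPKM in ES cells, and 518 and 522 RPKM in MEF. The clones lay between ES cells and MEF with no overlap for both genes. As a percent of MEF, Col1a1 stood at 4.16% and 5.79% in 3F+IL6 clones, 4.50% and 3.80% in 4F clones and 0.129% and 0.134% in ES cells. Col1a2 kept more of its MEF level, at 6.82% and 10.6% in 3F+IL6 clones and 7.25% and 5.94% in 4F clones, but not in ES cells, at 0.103% and 0.130%. Against MEF, Col1a1 fell by 4.33 ± 0.15 in 3F+IL6 clones and by 4.57 ± 0.15 in 4F clones (SE, adjusted p = 3.0e-07 in 3F+IL6 and 2.3e-07 in 4F clones), and against ES cells it rose by 4.55 ± 0.15 in 3F+IL6 clones and by 4.31 ± 0.15 in 4F clones (adjusted p = 2.8e-06 in 3F+IL6 and 3.5e-06 in 4F clones).

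Col3a1 (chr1:45311538-45349706, + strand) encodes type III collagen, which forms thin fibrils with type I in soft tissue. It had 14.3 and 28.2 RPKM in 3F+IL6 clones, 11.5 and 9.68 RPKM in 4F clones, 0.0896 and 0.0588 RPKM in ES cells, and 89.1 and 89.6 RPKM in MEF. At 16.0% and 31.6% of MEF in 3F+IL6 clones and 12.8% and 10.8% in 4F clones it stood higher relative to MEF in every clone than both type I genes. Both 3F+IL6 clones lay above both 4F clones. The difference from MEF was -2.10 ± 0.27 in 3F+IL6 clones and -2.97 ± 0.27 in 4F clones (SE, adjusted p = 0.00021 in 3F+IL6 and 2.9e-05 in 4F clones), and that from ES cells 4.30 ± 0.27 in 3F+IL6 clones and 3.43 ± 0.27 in 4F clones (adjusted p = 2.4e-05 in 3F+IL6 and 5.9e-05 in 4F clones).

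Type V collagen is a minor fibril component that sets fibril diameter. Col5a2, the tail-to-tail neighbour of Col3a1 at a distance of 24.6 kb, had 5.62 and 9.76 RPKM in 3F+IL6 clones, 4.85 and 4.95 RPKM in 4F clones, 0.367 and 0.297 RPKM in ES cells, and 254 RPKM in each MEF library. It kept only 1.91% to 3.84% of its MEF level in the 4 clones, against 10.8% to 31.6% for Col3a1 beside it. Its partner chain Col5a1 had 8.17 and 12.03 RPKM in 3F+IL6 clones, 8.89 and 7.46 RPKM in 4F clones, 2.96 and 3.09 RPKM in ES cells, and 165 and 168 RPKM in MEF. Col5a3, which encodes a further type V chain, had 3.42 and 3.36 RPKM in 3F+IL6 clones, 4.24 and 3.37 RPKM in 4F clones, 1.95 and 1.83 RPKM in ES cells, and 16.5 and 16.7 RPKM in MEF. These 3 genes fell against MEF and rose against ES cells in both kinds of clone, Col5a2 by the most (3F+IL6 -4.92 ± 0.20, 4F -5.44 ± 0.20 against MEF).

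Of the further fibrillar genes, Col2a1, the type II collagen of cartilage, had the same order of groups as type I. Its share of the MEF level was larger, at 66.0% to 88.7% in the clones. It had 3.84 and 4.52 RPKM in 3F+IL6 clones, 3.64 and 3.36 RPKM in 4F clones, 0.680 and 0.728 RPKM in ES cells, and 5.17 and 5.02 RPKM in MEF. It rose against ES cells in both kinds of clone (3F+IL6 1.60 ± 0.10, 4F 1.40 ± 0.10), fell against MEF in 4F clones (-0.44 ± 0.10, adjusted p = 0.0041) and missed the threshold against MEF in 3F+IL6 clones (-0.24 ± 0.10, adjusted p = 0.055), which it passed without 3F+IL6 clone 2 (adjusted p = 0.0096), with quantile normalization (-0.38, adjusted p = 0.0064), with median centring (-0.35, adjusted p = 0.0077) and without the trend in limma (adjusted p = 0.033). Of 9 chondrocyte markers, which include the cartilage regulator Sox9, 4 were tested. The sum of all 9 was 7.86 and 5.93 RPKM in 3F+IL6 clones, 8.498 and 8.91 RPKM in 4F clones, 3.502 and 3.08 RPKM in ES cells, and 4.92 and 4.82 RPKM in MEF, with Lect1 listed at 0 in every library and Hapln1 in 4 of 8, both ES libraries among them. In the clones it came mostly from Matn3, Matn1 and Acan, each lower in MEF. Sox9 was instead highest in MEF, with 0.266 and 0.766 RPKM in 3F+IL6 clones and 0.261 and 0.264 RPKM in 4F clones. It had 0.0904 and 0.0951 RPKM in ES cells and 3.25 and 3.14 RPKM in MEF, through which alone it passed the filter. Sox5 and Sox6 were at 0.274 RPKM or less in every library. The part of these markers in the Col2a1 result was not tested. Col11a1 and Col27a1, other minor fibril genes, passed the filter through MEF alone and were not called against ES cells. With quantile normalization both were called lower than ES cells in 3F+IL6 clones (Col11a1 -0.34, adjusted p = 0.0076, and Col27a1 -0.24, adjusted p = 0.029), and Col11a1 in 4F clones (-0.36, adjusted p = 0.0055). Their levels were 0.490 to 0.642 RPKM and 0.258 to 0.324 RPKM in the clones, 0.521 and 0.557 RPKM and 0.220 and 0.205 RPKM in ES cells, and 5.84 and 5.64 RPKM and 1.95 and 2.10 RPKM in MEF.

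**Figure D3:**
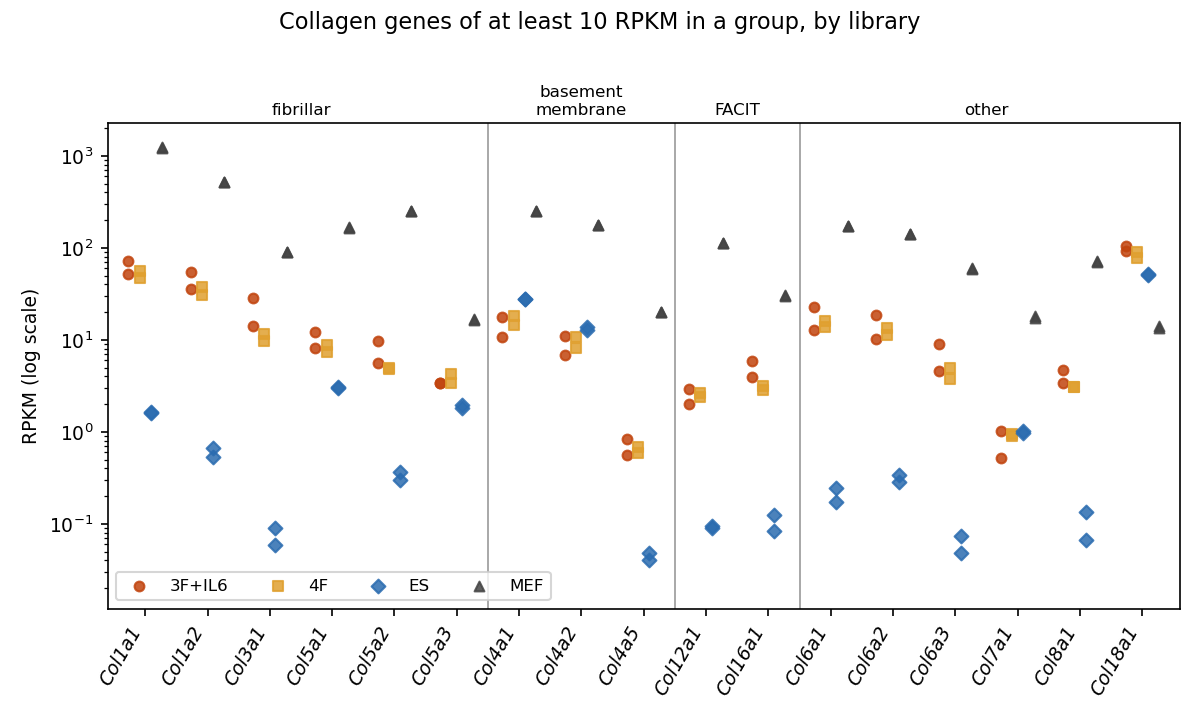
Points give the RPKM (log axis) of each library for the 17 collagen genes with a mean of 10 RPKM or more in a group, by class, with the 3F+IL6 clones at the left of each gene, then 4F clones, ES cells and MEF. MEF is the highest group for 16 of them and the lowest for Col18a1, and ES cells lie above all 4 clones for Col4a1 and Col4a2.

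Type IV was the class in which ES cells stood above the clones. Col4a1 (chr8:11198423-11312826, - strand) and Col4a2 (chr8:11312805-11449287, + strand) encode the chains of the ubiquitous basement membrane network and are annotated head to head, overlapping by 22 bases. The sources used here do not say whether the counting used strand. Col4a1 had 10.7 and 17.5 RPKM in 3F+IL6 clones, 18.2 and 14.5 RPKM in 4F clones, 28.0 and 27.9 RPKM in ES cells, and 251 and 250.01 RPKM in MEF. Col4a2 had 6.82 and 11.1 RPKM in 3F+IL6 clones, 10.6 and 8.18 RPKM in 4F clones, 12.6 and 13.7 RPKM in ES cells, and 178 and 179 RPKM in MEF. All 4 clones lay below both ES libraries for both genes. Col4a1 fell against ES cells by 0.97 ± 0.20 in 3F+IL6 clones and by 0.75 ± 0.20 in 4F clones (SE, adjusted p = 0.0048 in 3F+IL6 and 0.014 in 4F clones), the 4F call being lost without 4F clone 2 (adjusted p = 0.092) or without ES library 1 or 2 (0.059 and 0.058). Col4a2 differed by -0.54 ± 0.20 and -0.46 ± 0.20 and was not called (adjusted p = 0.051 in 3F+IL6 and 0.083 in 4F clones), while it was called lower in 3F+IL6 clones without clone 2 (adjusted p = 0.0014) and in 4F clones without 3F+IL6 clone 1 or 2 (adjusted p = 0.0084 in each fit).

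Against MEF both genes fell, Col4a1 by 4.10 ± 0.20 in 3F+IL6 clones and by 3.87 ± 0.20 in 4F clones, and Col4a2 by 4.20 ± 0.20 in 3F+IL6 clones and by 4.12 ± 0.20 in 4F clones. The 9 markers of extraembryonic endoderm, an embryonic lineage that secretes much type IV collagen, summed to 10.8 and 22.6 RPKM in 3F+IL6 clones, 20.7 and 18.0 RPKM in 4F clones, 24.3 and 24.2 RPKM in ES cells, and 30.5 and 31.4 RPKM in MEF. As for Col4a1, 3F+IL6 clone 1 was the lowest clone. The highest clone was not the same, being 3F+IL6 clone 2 for the marker sum and 4F clone 1 for Col4a1. Most of the MEF sum came from Dab2, at 19.2 RPKM in each MEF library, and Pdgfra, at 9.45 and 10.3 RPKM. Pdgfra is also on the list of fibroblast markers used here. Lama1 had 2.87 and 7.90 RPKM in 3F+IL6 clones and 10.2 and 9.46 RPKM in 4F clones. In ES cells Lama1 had 14.4 and 14.2 RPKM, against 0.0749 and 0.107 RPKM in MEF. Of the 6 markers tested, 2 rose against ES cells in each kind of clone (Dab2 and Pdgfra), while 3 fell in 3F+IL6 clones (Gata6, Sox7 and Lama1) and 2 in 4F clones (Gata6 and Sox7), Sox7 having passed the filter through ES cells alone. Among all genes 33.1% rose and 30.3% fell against ES cells in 3F+IL6 clones, and 33.7% and 33.5% in 4F clones. The counts that rose, and the 4F count that fell, are therefore near those of all genes. Gata4, a regulator of that lineage, was at 1.39 and 2.12 RPKM in 3F+IL6 clones, 2.46 and 1.92 RPKM in 4F clones, 1.88 and 1.96 RPKM in ES cells, and 0.114 and 0.0319 RPKM in MEF, and was not called against ES cells. Gata6, another of its regulators, was at 0.853 and 1.26 RPKM in 3F+IL6 clones, 1.26 and 0.984 RPKM in 4F clones, 2.93 and 3.10 RPKM in ES cells, and 1.48 and 1.63 RPKM in MEF. Sox17 was listed at 0 in both MEF libraries. Their part in the type IV result was not tested.

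The other type IV genes were low outside MEF. Col4a5, on chromosome X, encodes a chain of the network of kidney and other specialised basement membranes. It had 0.563 and 0.826 RPKM in 3F+IL6 clones, 0.690 and 0.588 RPKM in 4F clones, 0.0479 and 0.0403 RPKM in ES cells, and 20.0 and 19.9 RPKM in MEF, and so followed type I rather than Col4a1 in its order of groups. It passed the filter through MEF alone, so its difference from MEF is a description, with no overlap between the groups. It rose against ES cells (3F+IL6 0.69 ± 0.10, 4F 0.65 ± 0.10). Col4a6, its head-to-head neighbour at 1.3 kb, reached at most 0.091 RPKM, in MEF, and Col4a3 and Col4a4, a head-to-head pair on chromosome 1, at most 0.0319 and 0.0301 RPKM.

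Among FACIT genes, Col12a1 and Col16a1 were fibroblast-high and the type IX genes were not. Col12a1, whose product bridges type I fibrils, had 2.89 and 2.03 RPKM in 3F+IL6 clones, 2.62 and 2.37 RPKM in 4F clones, 0.0957 and 0.0894 RPKM in ES cells, and 113 and 112 RPKM in MEF. At 1.80% to 2.57% of MEF it had the lowest mean share over the 4 clones of the 17 genes given by library, although Col5a2 was lower than Col12a1 in 3 of them. Col16a1, a minor collagen of fibril surfaces, had 3.90 and 5.85 RPKM in 3F+IL6 clones, 3.16 and 2.85 RPKM in 4F clones, 0.0838 and 0.126 RPKM in ES cells, and 30.8 and 30.2 RPKM in MEF, or 9.35% to 19.2% of MEF in the clones. Col12a1 fell against MEF by 5.05 ± 0.13 in 3F+IL6 clones and by 5.02 ± 0.13 in 4F clones, and Col16a1 by 2.44 ± 0.15 in 3F+IL6 clones and by 2.98 ± 0.15 in 4F clones. Both rose against ES cells, Col12a1 by 1.65 ± 0.13 in 3F+IL6 clones and by 1.68 ± 0.13 in 4F clones, and Col16a1 by 2.39 ± 0.15 in 3F+IL6 clones and by 1.86 ± 0.15 in 4F clones.

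Type IX collagen coats the type II fibrils of cartilage. Col9a2 had 3.87 and 3.41 RPKM in 3F+IL6 clones, 3.78 and 4.62 RPKM in 4F clones, 6.57 and 6.74 RPKM in ES cells, and 0.0405 RPKM and a listed 0 in MEF. It was called higher than MEF in both kinds of clone and in ES cells (adjusted p = 1.6e-06, 1.1e-06 and 3.7e-07), and lower than ES cells in 3F+IL6 clones (-0.72 ± 0.11, adjusted p = 0.0011) and in 4F clones (-0.56 ± 0.11, adjusted p = 0.0032). Col9a3 had 1.46 and 1.34 RPKM in 3F+IL6 clones, 0.947 and 1.25 RPKM in 4F clones, 0.846 and 0.856 RPKM in ES cells, and 0.183 and 0.200 RPKM in MEF. It rose against MEF in both kinds of clone, a call lost in 4F clones with quantile normalization (0.23, adjusted p = 0.11). Against ES cells it was called higher in 3F+IL6 clones (0.37 ± 0.10, adjusted p = 0.013). That call was lost without ES library 1 (0.37) or 2 (0.38) and with quantile normalization (0.054, adjusted p = 0.71). Col9a3 would not have passed the filter without the 3F+IL6 clones, so its calls as higher there are a description. The remaining chain gene of type IX, Col9a1, was at 0.0189 RPKM or less in all libraries.

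Type VI collagen forms beaded filaments close to cells from the chains of Col6a1, Col6a2 and Col6a3. Col6a1 had 12.9 and 22.8 RPKM in 3F+IL6 clones, 15.8 and 13.8 RPKM in 4F clones, 0.173 and 0.248 RPKM in ES cells, and 171 and 174 RPKM in MEF. Col6a2 had 10.2 and 18.7 RPKM in 3F+IL6 clones, 13.6 and 11.2 RPKM in 4F clones, 0.336 and 0.282 RPKM in ES cells, and 143 and 142 RPKM in MEF. Col6a3, on another chromosome, had 4.57 and 8.95 RPKM in 3F+IL6 clones, 4.91 and 3.73 RPKM in 4F clones, 0.0744 and 0.0481 RPKM in ES cells, and 59.6 and 59.7 RPKM in MEF. The 3 genes kept alike shares of MEF, 7.46%, 7.19% and 7.66% in 3F+IL6 clone 1 and 13.2%, 13.2% and 15.01% in clone 2, 9.18%, 9.56% and 8.23% in 4F clone 1 and 7.97%, 7.85% and 6.26% in clone 2. All 3 fell against MEF and rose against ES cells, Col6a1 by 3.91 ± 0.22 above ES cells in 3F+IL6 clones and by 3.70 ± 0.22 in 4F clones. The further type VI genes, Col6a4, Col6a5 and Col6a6, did not pass the filter.

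Col18a1 (chr10:77052178-77166548, - strand), the basement membrane collagen whose end fragment is endostatin, was the exception among the abundant collagen genes. It had 91.3 and 104 RPKM in 3F+IL6 clones, 90.1 and 77.9 RPKM in 4F clones, 51.4 and 51.2 RPKM in ES cells, and 13.3 and 14.0 RPKM in MEF. The groups do not overlap, and the clones stood at 571% to 760% of MEF and ES cells at 377% and 375%. It rose against MEF by 2.75 ± 0.09 in 3F+IL6 clones and by 2.53 ± 0.09 in 4F clones (SE, adjusted p = 2.3e-07 in 3F+IL6 and 2.9e-07 in 4F clones), and against ES cells by 0.91 ± 0.09 in 3F+IL6 clones and by 0.70 ± 0.09 in 4F clones (adjusted p = 0.00015 in 3F+IL6 and 0.00045 in 4F clones). Col6a1 lies 326 kb from it on the same chromosome and strand and moved the other way against MEF. The other multiplexin, Col15a1, had 0.936 and 1.72 RPKM in 3F+IL6 clones, 1.23 and 0.910 RPKM in 4F clones, 0.0234 and 0.0493 RPKM in ES cells, and 1.57 and 1.62 RPKM in MEF, rose against ES cells (3F+IL6 1.15 ± 0.17, 4F 1.00 ± 0.17) and was not called against MEF (3F+IL6 -0.18 ± 0.17, 4F -0.33 ± 0.17). Without 3F+IL6 clone 2 it was called lower than MEF in 3F+IL6 clones (-0.42, adjusted p = 0.012), without 3F+IL6 clone 1 the difference was 0.07, and with clone 1 or clone 2 left out it was called lower in 4F clones (adjusted p = 0.013 in each fit).

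Of the network formers, Col8a1, a collagen of vessel walls and of the endothelial layer of the cornea, had 3.41 and 4.67 RPKM in 3F+IL6 clones, 3.10 and 3.11 RPKM in 4F clones, 0.134 and 0.0664 RPKM in ES cells, and 69.6 and 71.3 RPKM in MEF. It fell against MEF (3F+IL6 -3.84 ± 0.12, 4F -4.12 ± 0.12) and rose against ES cells (3F+IL6 2.19 ± 0.12, 4F 1.90 ± 0.12). Col10a1, the collagen of hypertrophic cartilage, was at 0.107 to 0.126 RPKM in the clones, at 0.0401 RPKM and a listed 0 in ES cells, and at 5.26 and 5.32 RPKM in MEF, through which alone it passed the filter.

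Col7a1 encodes the anchoring fibrils that hold epithelium to the tissue beneath. It had 0.523 and 1.02 RPKM in 3F+IL6 clones, 0.908 and 0.947 RPKM in 4F clones, 1.03 and 0.965 RPKM in ES cells, and 17.4 and 18.0 RPKM in MEF. It fell against MEF (3F+IL6 -3.41 ± 0.14, 4F -3.28 ± 0.14) and was not called against ES cells (3F+IL6 -0.19 ± 0.14, 4F -0.05 ± 0.14), while it was called lower in 3F+IL6 clones without clone 2 (-0.39, adjusted p = 0.0053) and, with quantile normalization, in 3F+IL6 clones (-0.57, adjusted p = 0.0029) and in 4F clones (-0.40, adjusted p = 0.013). The 8 epithelial and keratinocyte markers summed to 378 and 384 RPKM in 3F+IL6 clones, 347 and 330 RPKM in 4F clones, 159 and 156 RPKM in ES cells, and 10.7 and 9.71 RPKM in MEF, mostly from the epithelial genes Epcam and Cdh1. The keratin gene Krt14 was at 0.307 and 0.647 RPKM in 3F+IL6 clones, 0.616 and 0.275 RPKM in 4F clones, a listed 0 and 0.0703 RPKM in ES cells, and 2.28 and 1.69 RPKM in MEF. Krt5 was at 0.152 RPKM or less in the clones and ES cells, against 0.469 and 0.573 RPKM in MEF. The part of such cells in the Col7a1 result was not tested. Col13a1, a transmembrane collagen of cell junctions, had 0.153 and 0.120 RPKM in 3F+IL6 clones, 0.231 and 0.136 RPKM in 4F clones, and 1.06 and 1.00 RPKM in ES cells, and was listed at 0 in both MEF libraries. It passed the filter through ES cells alone, so its difference from ES cells is a description. It was called higher than MEF in 4F clones (0.24, adjusted p = 0.028). The call was lost with quantile normalization (0.06, adjusted p = 0.48) and with median centring (0.17, adjusted p = 0.12). It was also lost without 4F clone 1 (0.18) or without MEF library 1 or 2 (0.24 each). In 3F+IL6 clones Col13a1 was not called against MEF (0.18, adjusted p = 0.074). There it was called higher with a pseudocount of 0.1 (1.24, adjusted p = 0.0054), with no filter (adjusted p = 0.016) and without the trend in limma (adjusted p = 0.041).

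The 18 genes that did not pass the filter were at most 0.759 RPKM, the level of Col14a1 in MEF. Several of them leaned to the clones. Col17a1, a hemidesmosome collagen, was at 0.526 to 0.748 RPKM in the clones, 0.207 and 0.169 RPKM in ES cells, and 0.193 and 0.248 RPKM in MEF, and Col22a1, a collagen of muscle-tendon junctions, at 0.359 to 0.547 RPKM in the clones, 0.274 and 0.224 RPKM in ES cells, and 0.0269 and 0.0527 RPKM in MEF. Col20a1, a further FACIT gene, was at 0.0350 to 0.0934 RPKM in the clones, 0.448 and 0.533 RPKM in ES cells, and 0.369 and 0.361 RPKM in MEF. These values were not tested in the fit reported here. Over all 43 genes the highest mean was that of MEF for 29, of 3F+IL6 clones for 6, of 4F clones for 4 and of ES cells for 4.

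Placed side by side as a percent of MEF, the 16 genes of at least 10 RPKM in MEF other than Col18a1 had medians of 4.88% and 7.11% in 3F+IL6 clones, 6.61% and 5.57% in 4F clones, and 0.213% and 0.171% in ES cells. The range over these genes was 1.80% to 31.6% in the 4 clones, so the clones did not keep 1 common share of the MEF pattern. Col12a1, Col5a2 and Col4a5 had the lowest means over the clones, at 2.20%, 2.48% and 3.34%, and Col16a1, Col3a1 and Col5a3 the highest, at 12.9%, 17.8% and 21.6%. For 13 of the 17 genes with Col18a1, all 4 clones lay above both ES libraries and below both MEF libraries, as for 10.8% of all 7960 genes of 10 RPKM or more in a group, the others being Col4a1, Col4a2, Col7a1 and Col18a1.

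**Figure D4:**
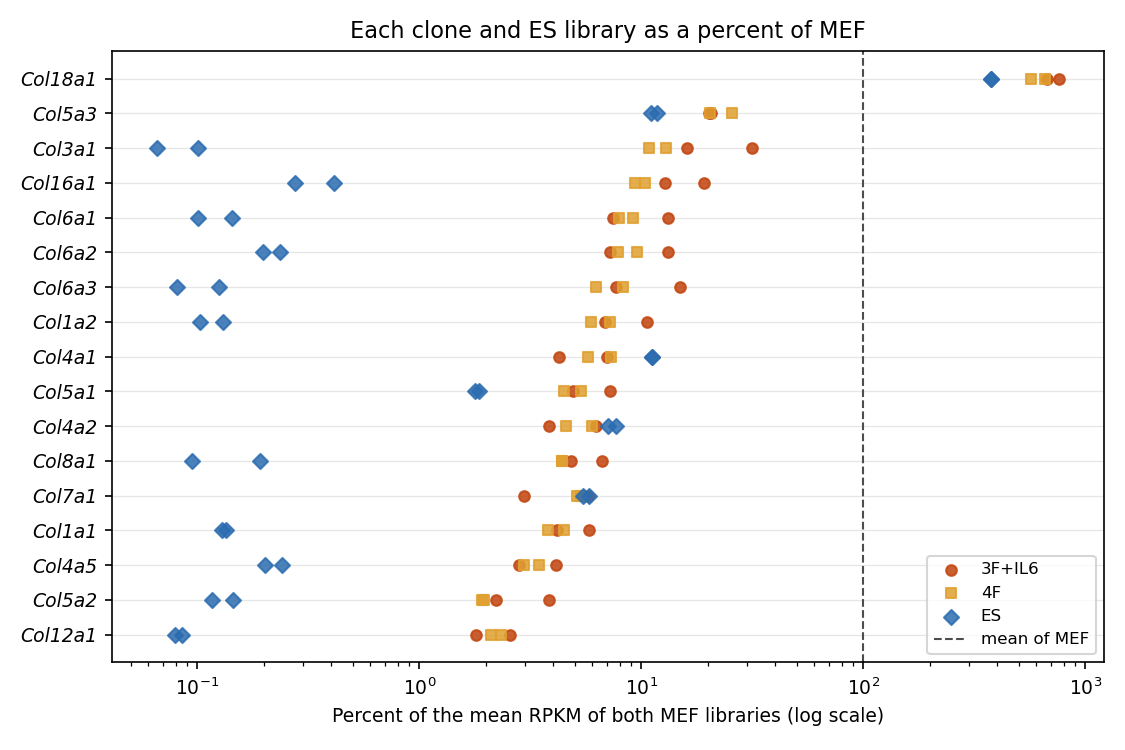
Points give each clone and ES library as a percent of the mean RPKM of both MEF libraries (log axis) for 17 collagen genes, with the lowest mean over the clones at the bottom. The clones range from 1.80% for Col12a1 to 760% for Col18a1, and ES libraries lie under 0.5% for 11 genes.

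Fibroblast markers moved with these values. Their medians were 8.49% and 13.7% of MEF in 3F+IL6 clones, 9.45% and 7.87% in 4F clones, and 0.391% and 0.155% in ES cells, and their sums 323 and 440 RPKM in 3F+IL6 clones, 340 and 285 RPKM in 4F clones, 77.7 and 80.6 RPKM in ES cells, and 3730 and 3673 RPKM in MEF. In the clones 13 of 14 were at 1 RPKM or more, against 4 of 14 in ES cells, where Fap was listed at 0 in both libraries and Lum and Twist2 in 1. Against ES cells 12 of 14 rose and 1 fell in each kind of clone. Among all genes 33.1% rose and 30.3% fell in 3F+IL6 clones, and 33.7% and 33.5% in 4F clones. Against MEF 12 fell in each kind, including Fap, which passed the filter through MEF alone. Among all genes 32.6% fell against MEF in 3F+IL6 clones and 34.4% in 4F clones. Dcn and Lum rose against MEF in 3F+IL6 clones. In 4F clones both differences were below 0 and not called by limma (Dcn -0.30, adjusted p = 0.17, and Lum -0.20, adjusted p = 0.45). Single markers ranged widely, with the surface marker Thy1 at 2.14% to 3.11% of MEF in the clones and the proteoglycan Lum at up to 268%. Osteoblast markers summed to 58.5 and 46.4 RPKM in 3F+IL6 clones, 65.4 and 63.5 RPKM in 4F clones, 49.6 and 53.4 RPKM in ES cells, and 8.59 and 8.42 RPKM in MEF, outside MEF almost wholly from Alpl, a phosphatase gene that pluripotent cells also express. The osteoblast regulator Runx2 was at 0.400 and 0.297 RPKM in 3F+IL6 clones, 0.246 and 0.196 RPKM in 4F clones, 0.0293 and 0.0405 RPKM in ES cells, and 7.77 and 7.62 RPKM in MEF. Sp7, another, was at 0.0649 RPKM or less in the clones and ES cells, against 0.489 and 0.550 RPKM in MEF. Macrophage and blood markers summed to 53.6 and 50.7 RPKM in 3F+IL6 clones, 51.4 and 50.1 RPKM in 4F clones, 13.1 and 14.8 RPKM in ES cells, and 6.71 and 6.83 RPKM in MEF, with the defining marker Ptprc at 0.0561 RPKM or less. Most of that sum was Cd68 and the lysozyme gene Lyz2, both called higher in each kind of clone than in ES cells and than in MEF. Lyz2 had 18.1 and 28.7 RPKM in 3F+IL6 clones, 19.1 and 16.2 RPKM in 4F clones, a listed 0 in both ES libraries, and 3.29 and 3.04 RPKM in MEF. Emr1, the F4/80 antigen gene, was at 0.460 to 1.00 RPKM in the clones, a listed 0 in both ES libraries, and 0.0512 and 0.0835 RPKM in MEF, while Csf1r was at 0.160 RPKM or less in the clones and ES cells, against 0.585 and 0.823 RPKM in MEF. The part of fibroblast, osteoblast and macrophage transcripts in the collagen levels of the clones was not tested.

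The same pair of measures parted the clones. 3F+IL6 clone 2 was the highest of the 4 clones for 14 of the 17 genes, as for 44.9% of all genes of 10 RPKM or more in a group, the exceptions being Col4a1, Col5a3 and Col12a1. Its ratio to clone 1 had a median of 1.55 over the 17 collagen genes and of 1.55 over the 14 fibroblast markers, against 1.048 over all genes tested, and ran from 0.701 for Col12a1 to 1.98 for Col3a1. In 4F clones the ratio of clone 2 to clone 1 had medians of 0.845 for these collagens, 0.885 for the markers and 1.005 for all genes. Both 3F+IL6 clones lay above both 4F clones for 5 of the 17 genes (Col3a1, Col5a2, Col8a1, Col16a1 and Col18a1) and below both for 0 of 17. Among all genes of 10 RPKM or more in a group the shares were 26.7% above and 20.9% below, so the first count is near that of all genes. Of the 17, limma called 0 different between the kinds.

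Ratios between the genes of chains that join in 1 molecule do not depend on a linear scaling of a library. Col1a1 stood to Col1a2 at 1.45 and 1.30 in 3F+IL6 clones and 1.48 and 1.52 in 4F clones, against 2.99 and 2.46 in ES cells and values of 2.40 and 2.36 in MEF. Col5a1 stood to Col5a2 at 1.45 and 1.23 in 3F+IL6 clones and 1.83 and 1.51 in 4F clones, against 8.08 and 10.4 in ES cells and values of 0.648 and 0.661 in MEF. Col4a1 stood to Col4a2 at 1.57 in each 3F+IL6 clone and 1.72 and 1.77 in 4F clones, against 2.21 and 2.03 in ES cells and values of 1.42 and 1.40 in MEF. For these pairs the 4 clones thus lay together, apart from both ES cells and MEF. Col6a1 to Col6a2 was 1.17 to 1.26 in the clones and 1.20 and 1.23 in MEF, against 0.515 and 0.879 in ES cells, where both genes were near 0. Across molecules, Col3a1 stood to Col1a1 at 0.277 and 0.394 in 3F+IL6 clones and 0.206 in each 4F clone, against 0.0562 and 0.0354 in ES cells and values of 0.0717 and 0.0727 in MEF, so the clones held more type III beside type I transcript than either.

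**Figure D5:**
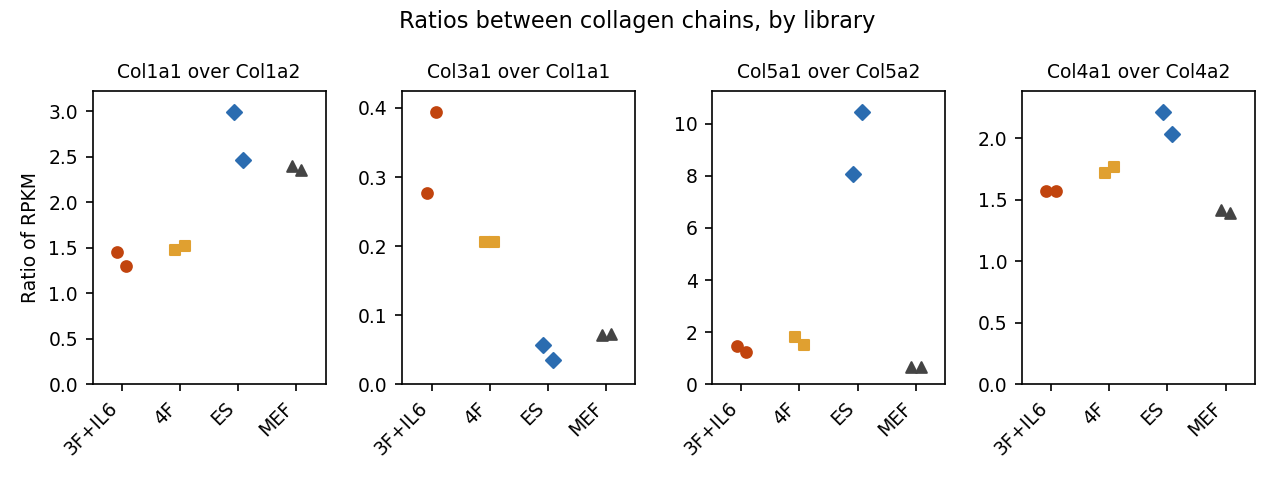
Each panel gives a ratio of RPKM between collagen genes (linear axis from 0), with a point for each library of the 3F+IL6 clones, 4F clones, ES cells and MEF. Col1a1 over Col1a2 is 1.30 to 1.52 in the 4 clones, 2.99 and 2.46 in ES cells, against 2.40 and 2.36 in MEF.

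The genes that make, export, trim and bind collagen were followed through 5 lists. Collagen chains are hydroxylated and glycosylated in the endoplasmic reticulum. Of 14 tested genes of that step, 11 fell and 1 rose against MEF in 3F+IL6 clones, and 10 fell and 2 rose in 4F clones, beside the 32.6% of all genes that fell and 49.4% that rose in 3F+IL6 clones, and 34.4% and 49.2% in 4F clones. Of the 45 tested genes of the 5 lists, Leprel1, Tll1, Itga1, Itga2 and Itga11 passed the filter through MEF alone and so had to differ from MEF. P4ha3, a prolyl 4-hydroxylase subunit, fell most among those named here (3F+IL6 -3.71 ± 0.15, 4F -3.96 ± 0.15), and Plod3, a lysyl hydroxylase and glucosyltransferase, fell by 2.09 ± 0.07 in 3F+IL6 clones and by 2.22 ± 0.07 in 4F clones. Leprel2 and Leprel4, of the prolyl 3-hydroxylase family, also fell, as did P4hb, the shared subunit and most abundant gene of the list (3F+IL6 -0.75 ± 0.09, 4F -0.76 ± 0.09). Plod2, a lysyl hydroxylase, rose in both kinds of clone (3F+IL6 0.53 ± 0.21, 4F 0.78 ± 0.21). Against ES cells 6 rose and 3 fell in 3F+IL6 clones, and 8 rose and 3 fell in 4F clones, where 33.1% of all genes rose and 30.3% fell in 3F+IL6 clones, and 33.7% and 33.5% in 4F clones, so the 3F+IL6 count is near that of all genes.

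P4ha1, which encodes the main catalytic subunit of prolyl 4-hydroxylase, parted from the collagens it modifies. It had 44.0 and 21.0 RPKM in 3F+IL6 clones, 44.7 and 40.5 RPKM in 4F clones, 4.10 and 4.29 RPKM in ES cells, and 37.1 and 34.6 RPKM in MEF. It rose against ES cells (3F+IL6 2.60 ± 0.29, 4F 3.07 ± 0.29) and was not called against MEF (3F+IL6 -0.23 ± 0.29, 4F 0.24 ± 0.29). The clone with the highest Col1a1, 3F+IL6 clone 2, had the lowest P4ha1 of the 4 clones.

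Of 13 tested genes for chaperones, messenger binding and export, 11 fell and 1 rose against MEF in each kind of clone. Of all genes, 32.6% fell and 49.4% rose against MEF in 3F+IL6 clones, and 34.4% and 49.2% in 4F clones. Against ES cells 5 of the 13 rose and 2 fell in 3F+IL6 clones, and 6 rose and 5 fell in 4F clones. Among all genes 33.1% rose and 30.3% fell in 3F+IL6 clones, and 33.7% and 33.5% in 4F clones. Serpinh1, the collagen chaperone HSP47, had 39.8 and 59.4 RPKM in 3F+IL6 clones, 42.3 and 33.0 RPKM in 4F clones, 64.9 and 63.4 RPKM in ES cells, and 625 and 624 RPKM in MEF, and so was not above ES cells in any clone although type I collagen was. It fell against MEF (3F+IL6 -3.65 ± 0.18, 4F -4.03 ± 0.18), and against ES cells in 4F clones (-0.76 ± 0.18, adjusted p = 0.0082), the difference in 3F+IL6 clones being -0.39 ± 0.18 (adjusted p = 0.10). Sparc, a collagen-binding matrix protein, was the most abundant gene of the list and fell by 2.69 ± 0.07 in 3F+IL6 clones and by 2.83 ± 0.07 in 4F clones against MEF. The endoplasmic reticulum channel gene Tmem38b rose (3F+IL6 1.12 ± 0.10, 4F 1.503 ± 0.10).

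Of 6 tested procollagen proteinase and enhancer genes 5 fell against MEF in each kind of clone, Tll1 among them, while the proteinase gene Adamts14 rose (3F+IL6 0.75 ± 0.18, 4F 0.71 ± 0.18). Against ES cells 3 rose and 1 fell in each kind, and the gene that fell was Pcolce, the proteinase enhancer (3F+IL6 -1.06 ± 0.07, 4F -1.22 ± 0.07). Of all genes, 32.6% fell against MEF in 3F+IL6 clones and 34.4% in 4F clones, while 33.1% and 33.7% rose against ES cells. All 5 cross-linking enzyme genes fell against MEF, and 4 rose against ES cells while Loxl4 fell (3F+IL6 -0.80 ± 0.12, 4F -0.95 ± 0.12). Lox, the lysyl oxidase of fibrils, had 33.0 and 28.9 RPKM in 3F+IL6 clones, 28.2 and 26.7 RPKM in 4F clones, 0.434 and 0.274 RPKM in ES cells, and 480 and 478 RPKM in MEF, the same order of groups as type I collagen. All 7 tested collagen receptor genes fell against MEF, Itga1, Itga2 and Itga11 having passed the filter through MEF alone. Against ES cells 5 rose in 3F+IL6 clones and 4 in 4F clones, while Itgb1, the shared integrin subunit, fell in both (3F+IL6 -0.52 ± 0.06, 4F -0.69 ± 0.06). Between 3F+IL6 and 4F clones 1 of these 45 genes was called, the collagen galactosyltransferase gene Glt25d1, at 42.7 and 45.8 RPKM in 3F+IL6 clones and 56.9 and 54.4 RPKM in 4F clones (-0.32 ± 0.05, adjusted p = 0.048). By limma it was not called in a fit of only those 4 libraries, and 30 of the 45 genes were called without 3F+IL6 clone 1 (23 higher, 7 lower) and 3 without clone 2 (all lower), beside the shares of all genes given above for these fits.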

How the data were processed

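Poly-A RNA of 8 libraries was read in 50 base reads on mm10, per the labels' protocols and the submitters' processing notes. The sources used here name no aligner, counter, gene models or strand setting. The authors deposited 1 table a library, whose values were taken as RPKM from their range and low-value steps, since no header names the unit. Of low values, 49.5% to 52.8% were whole multiples of 1 read within 0.1 read, so read counts could not be recovered for a count model. Depths are estimates from those steps, and no counting interval is given.

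The test was limma 3.58.1 (R 4.3.3) with a trend on log2(RPKM + 1), all 8 libraries, group as the only term, on 13200 genes with 1 RPKM or more in at least 2 libraries, Benjamini-Hochberg over all, threshold 0.05. A trial on simulated data gave all genes and groups the same spread, unlike these data, and is no support for the calls. With 2 libraries a group, p-values rest on a spread shared across genes and groups. Collagen genes of at least 10 RPKM in a group are given by library and the other tested ones by values or range. Collagen genes were taken by symbol, but that choice and the lists were made with earlier results of these data known. Alternatives were pseudocount, filter, normalization, centring, trend, samples fitted, replicate block and leaving out each library. Those on biosynthesis genes were chosen after seeing the data. Positions are from GENCODE M21 (GRCm38).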

Additional observations from a re-analysis of the deposited data

How the results depend on the processing

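Of 2024 alternative values of the named collagen differences, 1973 kept direction and side of the threshold, 12 lost the call, 31 gained it and 8 changed sign. Between 3F+IL6 and 4F clones the tally holds only the 4 genes with an unadjusted p under 0.05 by limma, so it says little of that comparison. It also holds fits without a library of a group not compared, which leave the difference itself unchanged. The changes of sign were Col15a1 in 3F+IL6 clones against MEF (0.067 without 3F+IL6 clone 1, -0.42 without clone 2), Col7a1 in 3F+IL6 clones against ES cells (0.019 without clone 1, -0.39 without clone 2), and, with quantile normalization against ES cells, Col10a1 (3F+IL6 -0.019, 4F -0.013), Col11a1 (3F+IL6 -0.34), Col27a1 (3F+IL6 -0.24, 4F -0.20) and Col9a3 (4F -0.13). The cause was not tested. The number of collagen genes called between 3F+IL6 and 4F clones ran from 0 to 13 on leaving out 1 library, 13 without 3F+IL6 clone 1 and 1 without clone 2, the lone library being assumed to vary like the others. With no filter, all 43 genes were tested, and 7 rose and 26 fell in 3F+IL6 clones against MEF, and 8 rose and 27 fell in 4F clones, where of all 19478 genes 38.9% rose and 25.2% fell in 3F+IL6 clones, and 38.7% and 26.8% in 4F clones. Rescaling each library to the same sum gave, as a percent of MEF, a fibrillar sum of 4.28 in 4F clones and 0.366 in ES cells, a type IV sum of 8.24 in ES cells, a FACIT sum of 7.67 in 3F+IL6 clones, 6.59 in 4F clones and 5.29 in ES cells, and a sum of the other collagens of 21.2 in 4F clones and 10.2 in ES cells. Quantile normalized RPKM gave fibrillar 4.07 in 4F clones and 0.375 in ES cells, type IV 8.26 in ES cells, FACIT 7.36 in 3F+IL6 clones, 6.79 in 4F clones and 5.74 in ES cells, and other 10.2 in ES cells. Without the highest member of the class, fibrillar was 8.76 in 3F+IL6 clones, 6.24 in 4F clones and 0.729 in ES cells, type IV 6.67 in ES cells, FACIT 32.6, 27.7 and 26.2 in 3F+IL6 clones, 4F clones and ES cells, and other 10.1, 8.19 and 0.843 in these groups. The call of Glt25d1 between the kinds of clone was lost with a pseudocount of 0.1, with no filter, without the trend, with the replicate block and without any 1 of the 4F, ES or MEF libraries, where 0 of the biosynthesis genes tested were called.

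Same-numbered libraries deviated from their group means with correlations of -0.0553 to 0.214, so the numbers do not pair the libraries. The fit with a replicate block called 3 collagen genes higher and 19 lower in 3F+IL6 clones against MEF, 4 and 20 in 4F clones and 4 and 21 in ES cells, 17 and 3 in 3F+IL6 clones against ES cells, 16 and 3 in 4F clones, and 0 between the kinds of clone, the same counts as without it. Over all genes it called 16 higher and 20 lower between 3F+IL6 and 4F clones, against 102 and 75 without it. Values under about 1 RPKM rest on read numbers that depend on level and transcript length. Col3a1 in ES cells, part of its ratio to Col1a1, had an estimated 7.8 and 4.9 reads. Col7a1 in 3F+IL6 clone 1 had an estimated 64.3 reads at 0.523 RPKM. Of the 43 genes, 18 did not reach the filter.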
